A study of Mus musculus with 17 samples.

Results

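Complex I (NADH:ubiquinone oxidoreductase) is the entry point of electrons from NADH into the mitochondrial respiratory chain. The genes described here are its nuclear-encoded subunits and assembly factors, taken as every protein-coding row of the deposited count table whose gene name begins with Nduf. The rule gave 48 genes of 56748 rows (21970 of them protein-coding), spread over 18 chromosomes: 8 assembly factors, named Ndufaf, and 40 genes counted as subunits. Of the 40, 37 are subunits of the complex itself, which divide into 7 core subunits, 9 accessory subunits of the matrix arm, 9 of the proximal membrane arm and 12 of the distal membrane arm. The other 3 carry a Nduf name only. Ndufa4 is a subunit associated with complex IV, Ndufa4l2 is its paralogue, and Ndufb11b is an intronless copy of Ndufb11 with 1 count over all libraries together. Ndufb11b was not tested, so 47 of the 48 genes entered the test among 16195 tested genes.

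Polyadenylated RNA was sequenced from heart tissue of mice aged 12 to 16 months, 8 controls (Ctrl) and 9 hMut mice, with 1 library per heart. The hMut mice were Polg iMut/iMut; +/Ckmm-cre on a C57BL/6N background. In them, Cre driven by the muscle creatine kinase promoter removes a floxed wild-type cassette, so that muscle cells express a proofreading-deficient mitochondrial DNA polymerase (POLG) from the endogenous locus and accumulate mtDNA mutations. That promoter is also active in skeletal muscle, other cells of the heart keep wild-type Polg, the labels give Ctrl by that word alone, and neither age nor sex is given for a single heart. By Xist and Y-linked counts, 3 of 8 Ctrl and 2 of 9 hMut hearts were female. Total counts ran from 32915159 to 46486964 per library. Genes of the mtDNA took 23.5 to 30.9% of the counts in Ctrl and 15.9 to 23.0% in hMut hearts. All 15 cardiomyocyte markers examined were expressed, with summed levels from 65010 to 78740 CPM (counts scaled to a common library size) in Ctrl. Of the 4 atrial markers listed, Myl7 and Sln were near 0, with at most 0.29 and 0.16 CPM in any Ctrl heart and 0.51 and 0.27 in any hMut heart. Myl4 had means of 1.51 CPM in Ctrl and 1.67 in hMut. Nppa, which the paper uses as a marker of cardiac stress, had means of 107.9 CPM in Ctrl and 241.4 in hMut (edgeR adjusted p = 0.101).

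Complex I couples the oxidation of NADH to proton pumping and is the largest enzyme of the respiratory chain. Its matrix arm holds the flavin and the iron-sulphur clusters that carry electrons to ubiquinone, and its membrane arm holds the proton pumps. The central membrane subunits are encoded by mtDNA (mt-Nd genes), whereas the core of the matrix arm, all accessory subunits and all assembly factors are nuclear genes, imported as proteins. Assembly factors help to build the complex and are absent from the finished enzyme. Cardiac muscle is densely packed with mitochondria, and mutations in many of these genes cause Leigh syndrome or cardiomyopathy in humans.

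Levels between genes were compared per kilobase of the gene model (RPKM), in Ctrl hearts. The core subunits had a median of 143 RPKM, and the accessory subunits of the proximal membrane arm lay between 91.8 and 385 with a median of 178. The matrix arm accessory subunits ran from 46.3 to 240 RPKM and the distal membrane arm subunits from 2.16 to 447, the ends being Ndufb2 and Ndufb10. The assembly factors were lower, from 5.45 to 37.2 RPKM with a median of 11.4. Ndufb10 at 447 ± 45.1 RPKM (SD, n = 8) headed the order. Ndufb2 stood apart at the low end: its gene model spans 5628 bases for 315 coding bases, but its level before division by length was also low, at 12.1 ± 1.24 CPM. The order also depends on gene model length in other genes. Ndufb7, with 4522 bases in its gene model and 623 in its canonical transcript, had means of 205.9 CPM and 45.5 RPKM.

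How reads with several matches or reads over overlapping genes were counted is not given in the sources used here. A search of the reference genome (GRCm39) found, for 8 of the 48 genes, another locus at 95% identity or more over at least 80% of the coding sequence. Among them were Ndufb4, with an identical copy of its coding sequence on chromosome 19, Ndufab1 (99.8%), Ndufa12 (99.5%) and Ndufs5 (99.4%). The pseudogene row Ndufa12-ps held 583 to 1623 counts per library, or 9.4 to 15.9% of the counts of the pair, so the values of Ndufa12 are uncertain, as are those of Ndufb4, Ndufab1 and Ndufs5. In the GENCODE vM39 annotation, 13 of the 48 genes had over 10% of their exonic bases under another gene with counts.

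In the comparison of hMut with Ctrl, which asks how the heart transcriptome differs between the genotypes, 0 of the 47 tested Nduf genes passed an adjusted p of 0.05 in the edgeR quasi-likelihood fit, adjusted by Benjamini-Hochberg over all tested genes. Over all tested genes, 4.62% passed, 3.48% as higher and 1.14% as lower. The smallest adjusted p in that test was 0.122, for the assembly factor Ndufaf7. DESeq2 also called 0 of them, with a smallest adjusted p of 0.0911. At an unadjusted p under 0.05 in the edgeR fit, 6 of the 47 genes were lower and 1 was higher, against 11.3% and 14.5% of all tested genes. The fitted values nevertheless lay on the same side: 44 of 47 fold changes were below 0, against 49.5% of all tested genes. Scaling libraries on cardiomyocyte markers, which moved the median of all tested genes to 0.20, put 41 of 47 above 0 and 83.2% of all tested genes with them. The median log2 fold change was -0.13 over the 37 subunits of the complex and -0.07 over the 8 Ndufaf assembly factors, beside 0.00 over all tested genes. In the cardiomyocyte scaling the medians were 0.04 and 0.12, both below the 0.20 of all tested genes. These medians depended on 2 hearts, hMut replicates 6 and 9, as given below, and were -0.08 and -0.04 without replicate 6 alone.

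**Figure D1:**
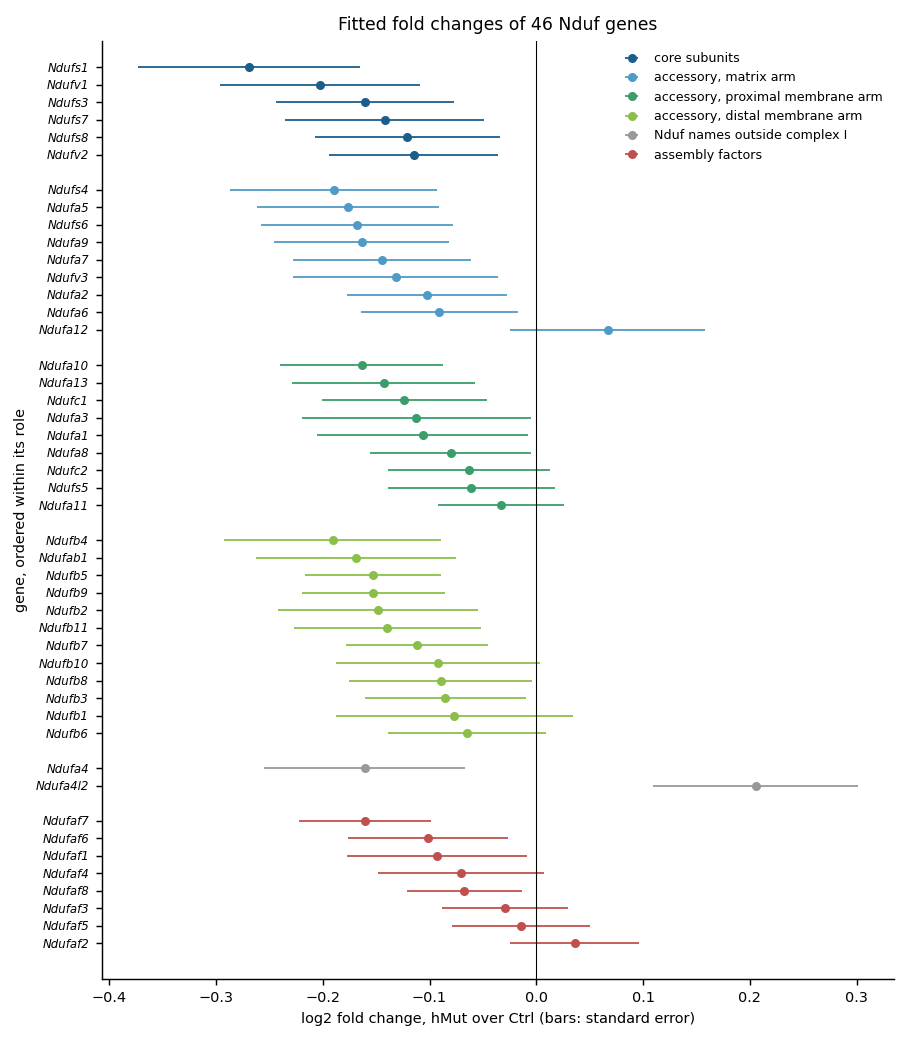
Fitted log2 fold change of hMut over Ctrl for 46 tested Nduf genes (horizontal axis; bars are standard errors), grouped and coloured by role and ordered within it. Most points lie between 0 and -0.20; Ndufs1 is lowest at -0.27, and Ndufa12, Ndufa4l2 and Ndufaf2 are the points above 0. On scaling to cardiomyocyte markers, which raised the median of all tested genes to 0.20, 41 of the 47 tested genes and 83.2% of all tested genes had values above 0.

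The 7 core subunits of the matrix arm had the lowest median of the roles, -0.16, with none called. Ndufs1 (chr1:63182755-63215992, minus strand, GRCm39) encodes the largest core subunit, which holds iron-sulphur clusters of the NADH-oxidising module. Its level ran from 604.6 to 754.8 CPM in Ctrl with a median of 729.6, and from 400.5 to 758.4 CPM in hMut with a median of 612.1. Of the 9 hMut hearts, 4 lay below every Ctrl heart, and hMut replicate 2 lay above all of them, so the groups overlapped. The mean was 716 ± 48.8 CPM (SD, n = 8) in Ctrl and 594 ± 117 (n = 9) in hMut, a log2 fold change of -0.27 (SE 0.10) that missed the threshold with an adjusted p of 0.125 by edgeR. Under other settings it passed as lower without hMut replicate 2 (log2 fold change -0.32, edgeR adjusted p = 0.0472) and in limma-voom with quality weights (-0.23, adjusted p = 0.0244), where it was the sole Nduf gene called and 5.59% of all tested genes were lower. Without hMut replicates 6 and 9 it stood at -0.15 (SE 0.060) with an edgeR adjusted p of 0.194. Eef1b2 and Ino80dos lie on the opposite strand over 14.4% of its exonic bases.

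Ndufv1 binds NADH and the flavin. It lay between 619.2 and 768.9 CPM in Ctrl (median 725.5) and between 426.8 and 739.6 in hMut (median 653.6), with a log2 fold change of -0.20 (SE 0.094). Its lowest levels were in hMut replicates 6 and 9, and the other 7 hMut hearts overlapped with Ctrl. Ndufs3, needed early in building the matrix arm, stood at -0.16 (SE 0.083). Ndufs7 and Ndufs8, which carry the last clusters before ubiquinone, stood at -0.14 (SE 0.093) and -0.12 (SE 0.087), and Ndufv2, which holds a cluster beside the flavin site, at -0.11 (SE 0.079). Ndufs7 shares 49.4% of its exonic bases with Gamt on the opposite strand, whose level was 3.42 CPM in Ctrl.

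**Figure D2:**
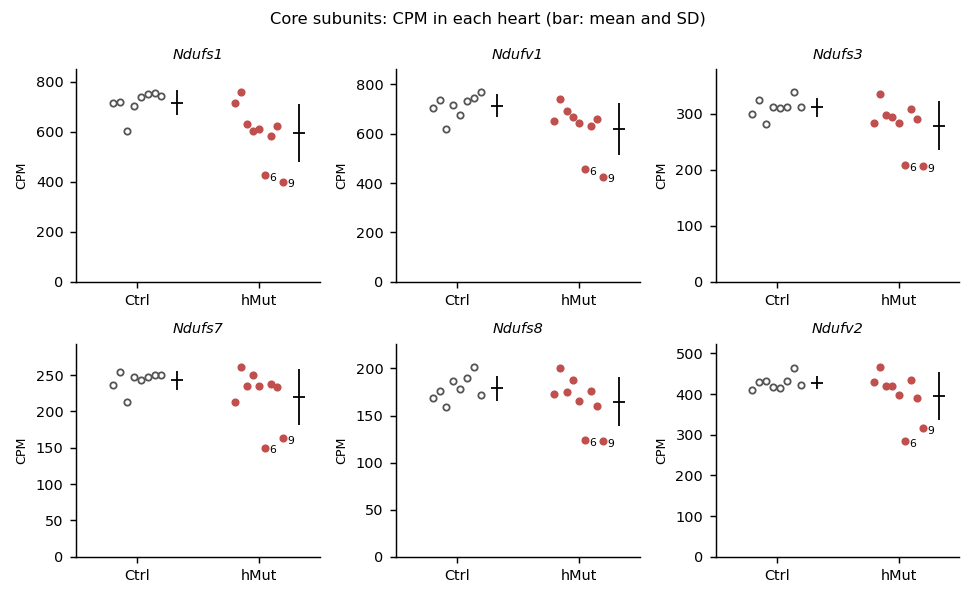
Normalised level (CPM, vertical axis from 0) of 6 core subunit genes in each Ctrl (open points) and hMut (filled points) heart; the bar beside each group is the mean with its SD, and hMut replicates 6 and 9 are numbered. In all 6 genes replicates 6 and 9 are the lowest of the 17 hearts.

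The accessory subunits surround this core and are needed for its stability. Of 30 accessory subunits, 0 passed the test, and their fold changes spanned -0.19 to 0.07. By role, the medians were -0.14 in the matrix arm, -0.11 in the proximal membrane arm and -0.13 in the distal membrane arm. The lowest were Ndufb4, a subunit of the distal membrane arm, at -0.19 (SE 0.10), and 2 of the matrix arm: Ndufs4, whose loss in mice gives a Leigh-like disease, at -0.19 (SE 0.097), and Ndufa5 at -0.18 (SE 0.085). Ndufs4 was tightly held in Ctrl, from 167.3 to 186.1 CPM with a median of 177.4. In hMut it ran from 104.8 to 203.2 CPM with a median of 161.2, 6 of 9 hearts were below every Ctrl heart, and replicate 2 was above every Ctrl heart. Ndufb4 lay between 130.9 and 161.6 CPM in Ctrl (median 148.0) and between 86.8 and 169.8 in hMut (median 134.8). Ndufa5 lay between 214.8 and 249.5 CPM in Ctrl (median 226.4) and between 143.0 and 243.3 in hMut (median 214.5).

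The highest accessory fold changes were those of Ndufa12 at 0.07 (SE 0.091), Ndufa11 at -0.03 (SE 0.059) and Ndufs5 at -0.06 (SE 0.078). Ndufa12, a matrix arm subunit near the NADH-oxidising module, had the widest spread of log2 CPM among Ctrl hearts (SD 0.209), from 153.1 to 233.2 CPM, and ran from 163.5 to 231.8 in hMut. Ndufa11, at the junction of the membrane domains, lay between 129.3 and 157.6 CPM in Ctrl (median 146.9) and between 113.5 and 155.9 in hMut (median 147.9), with replicate 9 alone below Ctrl. Ndufs5 lay between 139.0 and 155.9 CPM in Ctrl (median 150.8) and between 100.6 and 163.3 in hMut (median 149.8), with 3 hMut hearts below and 3 above every Ctrl heart.

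The promoters of these ends of the accessory range are printed here because genes of the respiratory chain are known to be read by shared factors, NRF1, GABPA, YY1 and the oestrogen-related receptors (ERR), and because ATF4, the effector of the mitochondrial stress response, binds a composite element (CARE). The windows run from 250 bases before to 50 after the annotated start and come from RefSeq (build GRCm38.p6), 5′ to 3′ along the gene, with matches to any of the 5 motifs in capitals.
Ndufb4 (chr16:37654319-37654618, minus strand): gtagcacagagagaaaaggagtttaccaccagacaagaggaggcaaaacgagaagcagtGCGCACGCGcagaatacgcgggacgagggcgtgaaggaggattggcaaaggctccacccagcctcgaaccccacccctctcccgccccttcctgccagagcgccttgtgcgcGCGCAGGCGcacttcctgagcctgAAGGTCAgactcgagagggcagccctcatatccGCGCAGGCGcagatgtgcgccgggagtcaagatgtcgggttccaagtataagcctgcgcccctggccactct
Ndufs4 (chr13:114388045-114388344, minus strand): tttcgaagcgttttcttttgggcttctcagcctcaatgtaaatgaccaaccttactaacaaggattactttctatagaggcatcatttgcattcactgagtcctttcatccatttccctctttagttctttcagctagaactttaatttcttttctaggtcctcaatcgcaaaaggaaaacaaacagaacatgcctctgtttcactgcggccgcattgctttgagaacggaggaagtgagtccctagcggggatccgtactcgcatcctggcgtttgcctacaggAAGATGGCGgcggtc
Ndufa11 (chr17:56717512-56717811, plus strand): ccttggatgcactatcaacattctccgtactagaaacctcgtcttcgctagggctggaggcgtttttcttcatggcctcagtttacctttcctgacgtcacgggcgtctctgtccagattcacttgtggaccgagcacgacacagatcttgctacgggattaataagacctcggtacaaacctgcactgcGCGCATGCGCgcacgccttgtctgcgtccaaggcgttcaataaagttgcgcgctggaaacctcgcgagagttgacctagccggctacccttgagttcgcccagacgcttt
Ndufa12 (chr10:94198785-94199084, plus strand): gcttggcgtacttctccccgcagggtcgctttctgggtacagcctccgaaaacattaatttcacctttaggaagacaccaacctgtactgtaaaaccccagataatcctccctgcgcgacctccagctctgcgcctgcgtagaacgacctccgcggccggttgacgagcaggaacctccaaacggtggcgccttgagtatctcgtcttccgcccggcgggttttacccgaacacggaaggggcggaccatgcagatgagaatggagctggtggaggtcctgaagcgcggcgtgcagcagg

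Of the 48 genes, 41 had a promoter in the table, 33 of them subunits of the complex. The NRF1 letters GCGCANGCG, searched on both strands as all motifs were, stood in 8 of the 33 (24.2%), against 7.03% of all 27025 promoters and 14.4% of those of tested protein-coding genes. They overlap their own reverse complement, so the 2 matches of Ndufa11 are a single stretch. The YY1 letters AAGATGGCG stood in 5 of the 33 (15.2%), against 1.64% and 3.3%. In all 5 they lay after the annotated start, near the end of the window. The letters contain ATG, so these matches cannot be told apart from the beginning of a coding sequence. Whether YY1 binds there was not tested. The GABPA letters CCGGAAG stood in 4 (12.1%, against 9.93% and 18.8%) and the ERR letters AAGGTCA in 3 (9.09%, against 5.38% and 3.94%). The CARE letters TGATGNAA stood in 0 of the 33, which says only that these letters are not in these windows, against 4.51% and 2.9%. Subunits with the NRF1 letters had a median log2 fold change of -0.09 and those without them -0.13; for the YY1 letters the medians were -0.16 and -0.11. Motifs were thus present both at the low and at the high end of the range, as the printed windows of Ndufb4 and Ndufa11 show.

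None of the 8 assembly factors passed the test, and 7 of 8 fold changes were below 0. Ndufaf7 (chr17:79244565-79255481, plus strand, GRCm39) is a methyltransferase of the mitochondrial matrix. Its level ran from 31.5 to 36.9 CPM in Ctrl, with a median of 35.6, and from 25.6 to 34.7 in hMut, with a median of 33.1. Of the 9 hMut hearts, 4 lay below every Ctrl heart, while the other 5 overlapped. The mean was 35.1 ± 1.83 CPM (SD, n = 8) in Ctrl and 31.4 ± 3.42 (n = 9) in hMut, with a log2 fold change of -0.16 (SE 0.062) and the edgeR adjusted p of 0.122 given above.

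The other assembly factors lay nearer to 0. Ndufaf6, which acts early in assembly, stood at -0.10 (SE 0.075), and Ndufaf1, which builds the proximal membrane arm, at -0.09 (SE 0.084). Ndufaf3 and Ndufaf4, which act together on the ubiquinone module, stood at -0.03 (SE 0.059) and -0.07 (SE 0.078). Ndufaf5, which hydroxylates Ndufs7, stood at -0.01 (SE 0.065), and its partner Ndufaf8 at -0.07 (SE 0.054). Ndufaf2, a paralogue of Ndufa12 that acts in the last steps, stood at 0.04 (SE 0.060), from 15.1 to 18.4 CPM in Ctrl and from 14.5 to 19.3 in hMut. The standard errors exceeded the size of the fold changes of Ndufaf2, Ndufaf3, Ndufaf4 and Ndufaf5. Those of Ndufaf1, Ndufaf6 and Ndufaf8 were smaller than the fold changes but of similar size.

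**Figure D3:**
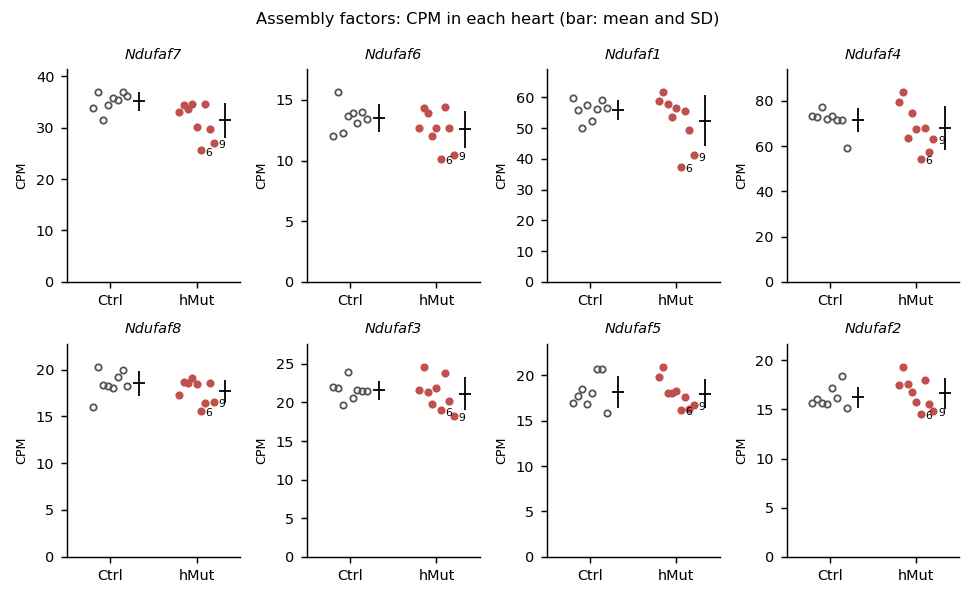
Normalised level (CPM, vertical axis from 0) of the 8 Ndufaf assembly factor genes in each heart; open points are Ctrl, filled points hMut, the bar is the mean with its SD, and hMut replicates 6 and 9 are numbered. Groups overlap in all 8 genes; in Ndufaf1, Ndufaf2, Ndufaf3, Ndufaf6 and Ndufaf7 replicates 6 and 9 are the lowest of the 17 hearts.

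The 2 expressed genes with a Nduf name outside the complex had fold changes of opposite sign, and neither passed the test. Ndufa4 was among the abundant genes at 415 RPKM in Ctrl and had a log2 fold change of -0.16 (SE 0.094). Ndufa4l2 (chr10:127350836-127353023, plus strand, GRCm39), known as a hypoxia-induced gene, lay between 13.1 and 17.95 CPM in Ctrl (median 16.5) and between 14.7 and 23.1 in hMut (median 20.01). Of 9 hMut hearts, 5 were above every Ctrl heart, with a log2 fold change of 0.21 (SE 0.096) and an edgeR adjusted p of 0.187. Shmt2, an enzyme of mitochondrial one-carbon metabolism, lies on the opposite strand over 63.3% of the exonic bases of Ndufa4l2. It rose from 38.0 ± 1.53 (n = 8) to 47.2 ± 5.23 CPM (n = 9), with a log2 fold change of 0.31 (SE 0.061) and an edgeR adjusted p of 0.0063. The strand setting of the counting is not given in the sources used here, so reads of the 2 genes may not be told apart. Shmt2 was looked at after the overlap was seen.

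The Nduf genes were low or high together in single hearts. The mean over the 37 subunits of log2 CPM minus the Ctrl mean ran from -0.09 to 0.10 in the 8 Ctrl hearts. It was -0.58 in hMut replicate 6 and -0.48 in hMut replicate 9. The other 7 hMut hearts lay between -0.13 and 0.14. The 8 assembly factors followed with smaller values, -0.32 in replicate 6 and -0.25 in replicate 9, beside -0.06 to 0.09 in Ctrl and -0.14 to 0.14 in the remaining 7. The SD of log2 CPM within a group had a median over the 47 genes of 0.085 in Ctrl and 0.236 in hMut.

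Counted gene by gene, hMut replicate 6 lay below every Ctrl heart in 43 of 47 genes and replicate 9 in 42, against 28.8% and 26.6% of all tested genes in those hearts. Replicates 5 and 8 lay below every Ctrl heart in 21 and 15 of the 47 genes, against 15.1% and 14.4% of all tested genes. Replicate 2 went the other way and lay above every Ctrl heart in 29 of 47 genes, against 10.9% of all tested genes. In the remaining 4 hMut hearts 2 to 7 genes were below and 2 to 3 above every Ctrl heart. Both replicates 6 and 9 were below all 15 other hearts in 41 of the 47 genes, where 14.5% of all tested genes were. The 6 exceptions were Ndufa11, Ndufa12, Ndufa4l2, Ndufaf4, Ndufaf5 and Ndufaf8. In 0 of the 47 genes was every hMut heart below every Ctrl heart, a pattern seen in 0.0617% of all tested genes.

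**Figure D4:**
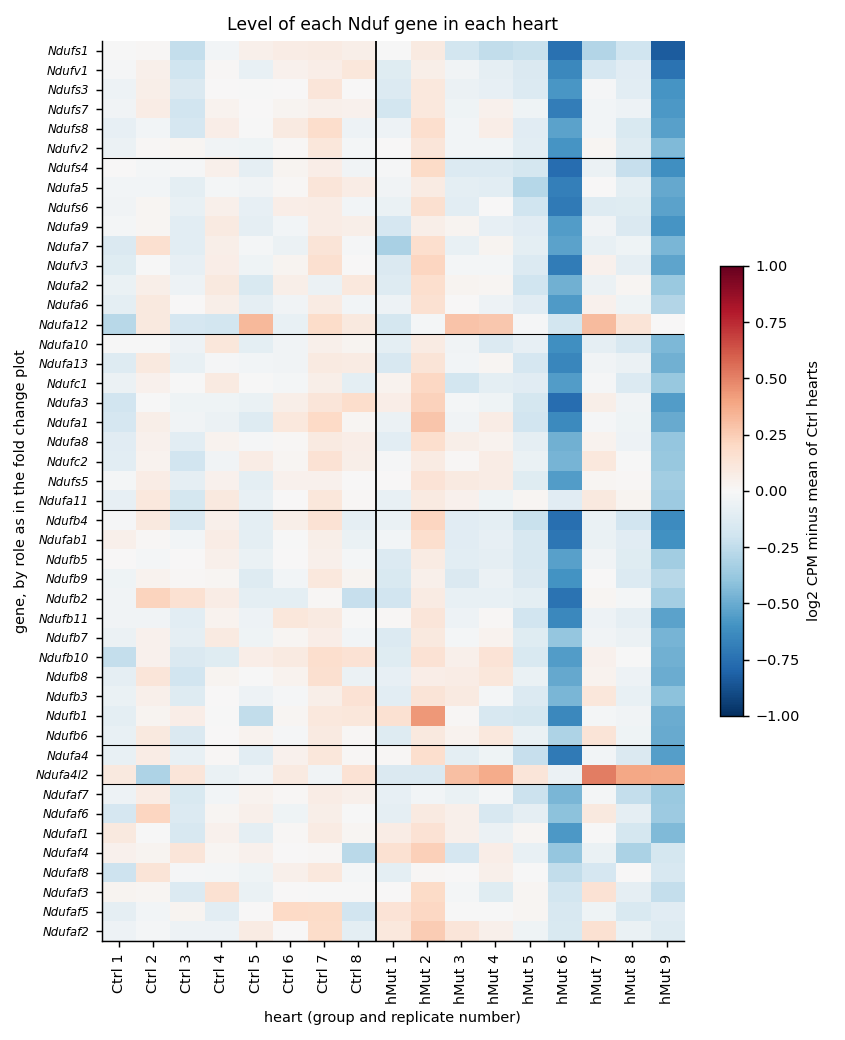
Log2 CPM of each of 46 tested Nduf genes (rows, by role) in each heart (columns) minus the mean of the Ctrl hearts; red is higher and blue lower, on a scale from -1 to 1. The columns of hMut replicates 6 and 9 are blue in nearly all rows, the exceptions being Ndufa12 and Ndufa4l2 in replicate 9. The column of hMut replicate 2 is mostly pale red.

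Without hMut replicates 6 and 9, the median log2 fold change moved to -0.03 over the 37 subunits and to 0.00 over the assembly factors, and 30 of 47 fold changes were below 0 against 51.9% of all tested genes. None of the 47 genes was called in that fit. These 2 hearts also differed in cell type markers. The summed level of the 15 cardiomyocyte markers was 51090 CPM in replicate 6 and 48390 in replicate 9, below the 63130 to 78740 of all other hearts. Gene by gene, both were below every other heart in 9 of the 15 markers, against 14.5% of all tested genes. The list did not move as 1: among hMut hearts, Ttn was highest in replicate 9 and Actn2 in replicate 6. The 16 immune markers summed to 2638 and 953 CPM in replicates 6 and 9. Their sums were 344 to 590 CPM in Ctrl and 428 to 581 in the other hMut hearts. The 8 fibroblast markers summed to 2135 and 1650 CPM in replicates 6 and 9. In Ctrl their sums were 926 to 1090 CPM, and in the other hMut hearts 912 to 1203. Of the 6 adipocyte markers, Adipoq, Plin1, Lep and Ucp1 had a median of 3 counts or fewer per library. Cfd had means of 0.15 CPM in Ctrl and 0.21 in hMut, whereas Cidea had means of 23.2 and 24.6 CPM. The part of these cell types in the lower Nduf levels was not tested. In bulk tissue, fewer cells of a type and less RNA per cell cannot be told apart.

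Set against the cardiomyocyte markers, the subunits overlapped between the groups. The per-heart mean of the 37 subunits minus that of the cardiomyocyte markers ran from -0.11 to 0.12 in Ctrl and from -0.09 to 0.16 in hMut on the log2 scale, with -0.09 in replicate 6 and 0.02 in replicate 9. When libraries were scaled on the cardiomyocyte markers, 4 genes were called higher by edgeR (Ndufa11, Ndufa4l2, Ndufaf2 and Ndufaf3), against 28.0% of all tested genes.

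Other genes of the same machinery gave similar values. Of 13 further complex I assembly genes listed, such as Acad9 and Ecsit of the proximal arm assembly complex, 12 were in the table. None of the 12 passed the test, 11 of 12 fold changes were below 0, and their median was -0.11. Of 39 nuclear subunits of complexes II to V, 0 passed, 39 of 39 fold changes were below 0, and the median was -0.15. In each heart the mean of the complex I subunits stayed within -0.04 to 0.06 of that of complexes II to V on the log2 scale, and replicates 6 and 9 were below all other hearts in 39 of those 39 genes.

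The 7 mtDNA-encoded subunits of the same complex differed from the nuclear ones. Of the 7 mt-Nd genes, 6 passed the edgeR test as lower. Their log2 fold changes ran from -0.53 for mt-Nd6 (edgeR adjusted p = 0.0179) to -1.30 for mt-Nd4l (adjusted p = 0.000396). The remaining gene, mt-Nd1, stood at -0.35 (edgeR adjusted p = 0.138), and the median of the 7 was -0.75. In mt-Nd2, mt-Nd4 and mt-Nd5 every hMut heart was below every Ctrl heart. Without hMut replicates 6 and 9, 5 of the 7 still passed. Taken per heart, the mean of the mt-Nd genes minus that of the 37 nuclear subunits ran from -0.24 to 0.29 in Ctrl and from -0.94 to -0.26 in hMut on the log2 scale, so the groups did not overlap. The hearts lowest in nuclear subunits were not those with the widest gap: it was -0.79 in replicate 6 and -0.36 in replicate 9, against -0.94 in replicate 5, the widest. A low nuclear mean narrows this gap by its definition. The mt-Nd mean itself was lowest in replicate 6, at -1.365, beside -1.072 in replicate 5 and -0.842 in replicate 9.

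**Figure D5:**
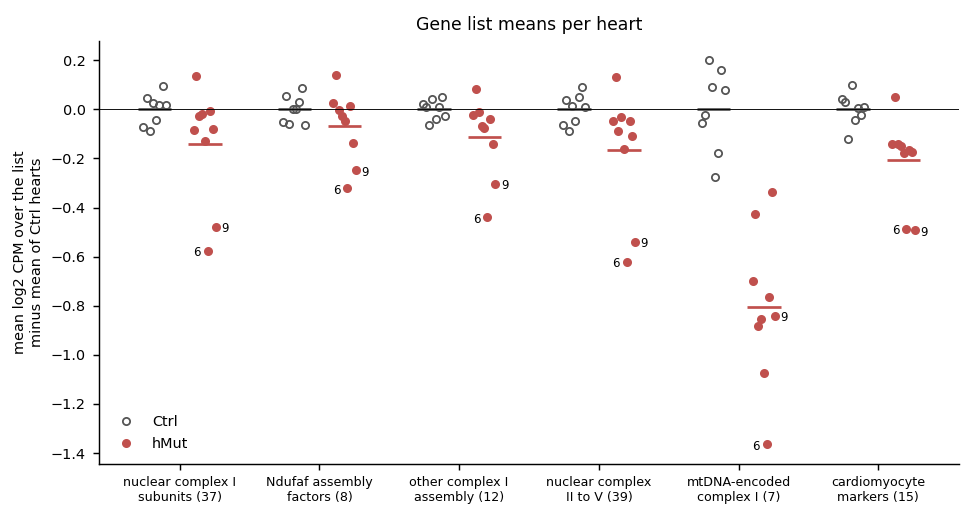
Mean log2 CPM over each gene list minus the mean of the Ctrl hearts (vertical axis), for 6 lists, with 1 point per heart, open for Ctrl and filled for hMut; lines are group means and hMut replicates 6 and 9 are numbered. The 4 nuclear lists of the respiratory chain have replicates 6 and 9 low and the rest near Ctrl. In the mtDNA-encoded list, by contrast, all 9 hMut hearts lie at or below -0.335.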

How the data were processed

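Polyadenylated RNA of 8 Ctrl and 9 hMut mouse hearts was sequenced by the authors, trimmed with fastp, aligned to GRCm39 with HISAT2 2.2.1 and counted per gene with featureCounts 2.0.6, per the submitters' processing notes and the study's methods. The deposited table holds raw counts per gene, not normalised; the strand setting is not given in the sources used here. No column of per-sample values was left unused. Libraries were grouped by the genotype label; of 136 pairs of libraries 0 were identical.

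Counts were filtered with filterByExpr (16195 genes), scaled by TMM and tested for hMut against Ctrl with edgeR 4.0.16 (quasi-likelihood, condition only, Benjamini-Hochberg over all tested genes; R 4.3.3). The study's own tool, DESeq2 1.42.0, and limma 3.58.1 were alternatives. Log2 CPM used a prior count of 2, RPKM the gene length column of the table. Coding sequences were searched against GRCm39 with BLAST 2.17.0+. Promoters were taken from RefSeq (GRCm38.p6); 12 of 13 further assembly genes and 39 of 39 complex II to V genes matched, older symbols through RefSeq synonyms.

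The members, lists and the 2 hearts left out together were chosen with earlier results of these data known. Genes named individually were those past an adjusted p of 0.05, the 7 core subunits, the 8 Ndufaf genes, Ndufa4 and Ndufa4l2, and the 3 highest and 3 lowest fold changes among the other subunits; of the further assembly genes, those past the threshold; mt-Nd genes by range. The values of 1 gene under this rule are not reported here, although it is counted in the lists. The p-values set the difference between hMut and Ctrl against the spread between hearts.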

Additional observations from a re-analysis of the deposited data

Results flagged for a closer look

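Among the 22 genes named by the rule, the CPM of single hearts was compared within each group, 44 groups of hearts in all. A heart was set apart where its gap to the next heart took up more of the group's range than Dixon's 95% criterion allows, which chance does in about 1 of 20 groups. That held for 5 groups. In Ctrl replicate 3 the level was the lowest of the Ctrl hearts for 2 core subunits: 604.6 CPM for Ndufs1 (next heart 701.8) and 212.6 for Ndufs7 (next 235.8). Ctrl replicate 8 was lowest for Ndufaf4, at 59.09 CPM (next 71.47), and Ctrl replicate 7 highest for Ndufv2, at 462.8 CPM (next 432.6). Among the hMut hearts, replicate 9 was lowest for Ndufa11, at 113.5 CPM (next 134.9). Without Ctrl replicate 3, 0 of the 47 Nduf genes were called, with a smallest edgeR adjusted p of 0.0940.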

How the results depend on the processing

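The number of Nduf genes called was 0 higher and 0 lower in the edgeR fit, and stayed at 0 with DESeq2, RLE factors, TMM on protein-coding genes without mtDNA genes, no filter, the stricter filter (1 CPM in 8 libraries), sex as a covariate and the replicate block. It was 1 lower in limma-voom (Ndufs1), 4 higher with cardiomyocyte scaling, and 0 to 1 lower with each library left out, the 1 being Ndufs1 without hMut replicate 2.

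The labels do not say that replicate numbers pair the hearts. Deviations of 8 same-numbered pairs correlated from -0.23 to 0.34, 1 of them over 0.1, and 1 Ctrl heart correlated best with its own number. These correlations cannot exclude a pairing, because paired hearts need not have correlated deviations. The replicate block called 169 genes higher and 26 lower over all genes, beside 564 and 185 without it, 0 Nduf genes, and put Ndufa11 at 0.0054.

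Over all genes, the calls higher and lower were 1010 and 507 with DESeq2, 1175 and 906 with limma-voom, 4534 and 104 with cardiomyocyte scaling, 316 and 115 without hMut replicates 6 and 9, and 68 lower with no filter. With each library left out they ran from 326 (without hMut replicate 5) to 1128 (without hMut replicate 2) higher and from 69 to 664 lower, at the same hearts; the cause was not tested.

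The median log2 fold change was 0.040 for the subunits and 0.12 for the assembly factors with cardiomyocyte scaling, and -0.033 and -0.0039 without hMut replicates 6 and 9; with each library left out it ran from -0.18 to -0.080 and from -0.096 to -0.038. Cardiomyocyte scaling, which raised the median of all tested genes to 0.20, turned named genes positive: Ndufa4 to 0.012, Ndufs3 to 0.015, Ndufs7 to 0.032, Ndufs8 to 0.055, Ndufv2 to 0.060, Ndufs5 to 0.12, Ndufa11 to 0.16, Ndufaf1 to 0.085, Ndufaf3 to 0.16, Ndufaf4 to 0.11, Ndufaf5 to 0.17, Ndufaf6 to 0.082, Ndufaf7 to 0.024 and Ndufaf8 to 0.12. Without hMut replicates 6 and 9, Ndufaf1 moved to 0.0076, Ndufaf3 to 0.020, Ndufaf5 to 0.021, Ndufs5 to 0.034 and Ndufa11 to 0.021. Ndufaf5 stood at 0.013 with sex as a covariate and between -0.044 and 0.015 with each library left out, and Ndufa11 between -0.057 and 0.0043. Leaving out 1 library moved other named values by over 1.5 times, none of them called. Without hMut replicate 6 these were Ndufa4 at -0.10, Ndufs7 at -0.085, Ndufs8 at -0.076, Ndufv2 at -0.065, Ndufs5 at -0.0087, Ndufaf1 at -0.042 and Ndufaf6 at -0.067, and without hMut replicate 9 Ndufs8 at -0.075, Ndufs5 at -0.028 and Ndufaf1 at -0.054. Over all libraries left out in turn, Ndufaf2 ran from 0.0064 to 0.062, Ndufaf3 from -0.059 to -0.0046, Ndufaf4 from -0.11 to -0.035 and Ndufa12 from 0.028 to 0.12.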
